A study of Mus musculus with 4 samples.

Results

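The genes described here are 9 genes of B cells and their precursors, Ighm, Cd79a, Cd79b, Spib, Pax5, Ms4a1, Vpreb3, Igll1 and Rag1, counted in cells that had been sorted from the mouse lower incisor as negative for the leukocyte protein CD45. They were found by symbol among the 55487 genes of the count table, and all 9 had a row and passed the low-count filter of the test. The list was selected on measured values of these same counts: genes of the B lineage had been seen in the sorted cells, at lower levels in the knockout. The levels and fold changes of the 9 members between genotypes are therefore given as a description, with no p.

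RNA was sequenced from 4 libraries of C57 mice at postnatal day 30, with the tissue labelled dental pulp and the cells labelled dental progenitor cells. The sort kept cells without CD45, without the erythroid protein Ter119 and without Tie2, which endothelial cells carry. The 2 knockout libraries had the genotype Ptipf/f;Sp7-cre, in which floxed Ptip alleles met a Cre recombinase made where Sp7 is active. Sp7 encodes osterix, a factor of osteoblasts and odontoblasts. The 2 control libraries had the genotype Ptipf/f, with the same floxed alleles and no Cre, so loss of Ptip and presence of Cre cannot be told apart. Ptip (gene symbol Paxip1) encodes a protein that joins complexes which methylate histone H3. The series title names tooth development and the Wnt pathway as its subject.

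Paxip1 had 111 and 71 counts in knockouts 1 and 2, against 407 and 696 in controls 1 and 2. Library totals were 15154246 to 19142757 counts. Genes of the tooth were abundant, with Col1a1 at 14440 to 38662 CPM (the count normalised to library size, with sizes scaled by the TMM method). The ameloblast gene Ambn stood at 18171 to 52583 CPM, although the labels name dental pulp and not ameloblasts. The labels do not say whether a library came from 1 animal or from a pool. The X-linked Xist had 2272 and 104 counts in knockouts 1 and 2, against 838 and 3308 in controls 1 and 2, and the Y-linked Ddx3y had 39 and 2083 counts, against 620 and 139. The 2 knockouts thus differed in the balance of these genes, and control 1 held both in like numbers. Gene-wise p-values measure only the spread between these libraries.

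B cells form in the bone marrow from progenitors that join the gene segments of their immunoglobulin chains, after a cut by the recombinase of which Rag1 encodes a subunit. The new heavy chain, whose constant part is encoded by Ighm, is first shown on pre-B cells with a surrogate light chain, of which Igll1 encodes a part. The signal is passed into the cell by the Cd79a and Cd79b proteins, and Pax5 holds the cells in the B lineage. Mature B cells carry the Ms4a1 protein, known as CD20, and plasma cells switch to secreting antibody, often with another heavy chain constant part.

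Promoter sequence is shown for members of different stages, because the letters of known B lineage motifs can be read in it. RefSeq windows of 300 bases (GRCm38.p6, 250 bases before to 50 after the start) were matched by symbol for 6 members: Cd79a, Igll1, Pax5, Rag1, Spib and Vpreb3. The 250 bases before the start are given from 5' to 3' on the gene's strand for Igll1 and Rag1 of precursors, for the transcription factor gene Spib, and for Vpreb3. Capitals mark every match, on either strand, to a searched motif: CAGGTG or CAGCTG (E-boxes, which the factor encoded by Tcf3 can bind), CCCNNGGG (the core of the EBF1 motif) and ATTTGCAT (the octamer, bound by POU factors).
Igll1 chr16:16863986-16864235 (minus strand): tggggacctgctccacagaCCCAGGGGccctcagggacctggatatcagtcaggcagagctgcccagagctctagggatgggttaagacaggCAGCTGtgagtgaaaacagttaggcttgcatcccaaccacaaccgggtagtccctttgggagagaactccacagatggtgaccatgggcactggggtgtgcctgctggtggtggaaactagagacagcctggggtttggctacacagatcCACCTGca
Rag1 chr2:101649533-101649782 (minus strand): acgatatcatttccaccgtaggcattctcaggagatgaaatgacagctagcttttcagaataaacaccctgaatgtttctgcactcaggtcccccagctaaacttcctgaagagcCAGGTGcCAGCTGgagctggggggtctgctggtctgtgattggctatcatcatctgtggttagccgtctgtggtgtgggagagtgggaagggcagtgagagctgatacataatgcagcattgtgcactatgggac
Spib chr7:44532072-44532321 (minus strand): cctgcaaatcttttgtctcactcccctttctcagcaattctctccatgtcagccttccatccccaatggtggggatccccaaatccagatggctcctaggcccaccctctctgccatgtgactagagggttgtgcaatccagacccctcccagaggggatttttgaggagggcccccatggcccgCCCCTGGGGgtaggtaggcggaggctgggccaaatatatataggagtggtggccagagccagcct
Vpreb3 chr10:75948050-75948299 (plus strand): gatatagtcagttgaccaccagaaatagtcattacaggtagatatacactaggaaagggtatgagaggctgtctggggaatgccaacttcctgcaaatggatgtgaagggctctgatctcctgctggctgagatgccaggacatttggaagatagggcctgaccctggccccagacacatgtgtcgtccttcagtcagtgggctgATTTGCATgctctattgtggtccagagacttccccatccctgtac

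The RefSeq start of Vpreb3 lies inside the longer span that GENCODE gives the gene. In Rag1 the capitals hold a CAGGTG and a CAGCTG with 1 base between them, 135 to 123 bases before the start. The octamer of Vpreb3 lies 45 to 38 bases before the start. In Spib the capitals are 2 overlapping matches to CCCNNGGG. CAGGTG was found in 3 of the 6 windows (Cd79a, Igll1 and Rag1) and in 20.2% of all 32851 promoter windows, and CAGCTG in 2 of 6 and in 16.3% of all. The octamer was in 1 of 6 and in 1.74% of all, and CCCNNGGG in 2 of 6 and in 13.7% of all. The longer EBF1 motif, with 1 more base on each side of the core (0.904% of all windows), and GAGGAAGT, a motif of the PU.1 and SPIB factors (3.2%), were in none of the 6. Pax5 held no match to any of these motifs. These matches describe letters only, and their part in the levels of the members was not tested.

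For all 9 members each knockout lay below each control. Across all 17128 genes tested, 24.9% were lower in both knockouts in this way, and 50.6% had groups that did not overlap in either direction. The members entered the list with this contrast known, so nothing is read from that count. Fitted log2 fold changes (edgeR, knockout over control) ran from -3.50 for Pax5 to -2.63 for Cd79b with a median of -3.04, where the median over all tested genes was 0.0024. Without knockout 1 the median of the members was -4.76, without knockout 2 it was -2.16, and without control 1 it was -1.83. In bulk RNA, fewer cells of a type and less RNA per cell cannot be told apart. Summed over the 9 members, knockout 1 held 2083 and knockout 2 held 353 CPM, against 14619 and 4895 CPM in controls 1 and 2. The libraries of a genotype thus lay far apart: the 9 genes took 0.212% and 0.0355% of all counts in the knockouts, against 1.39% and 0.4995% in the controls.

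**Figure D1:**
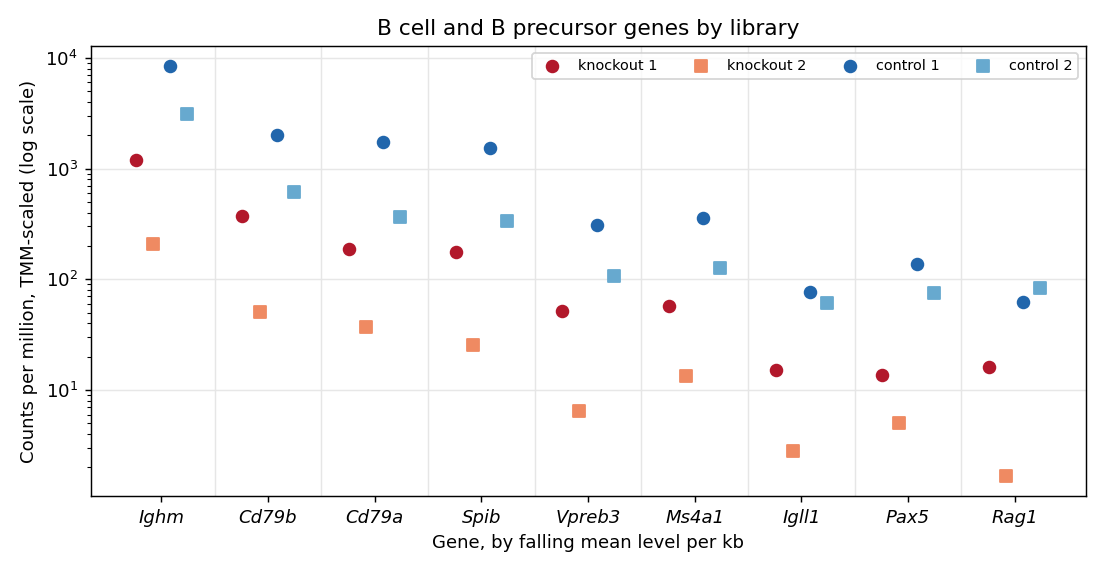
Level of each of the 9 members (CPM, log scale) in knockouts 1 and 2 and controls 1 and 2, 1 point a library. Knockout 2 was the lowest library for 9 of 9 members and control 1 the highest for 8 of 9, the exception being Rag1.

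Among the chains of the B cell receptor, Ighm was the most abundant member. The gene (ENSMUSG00000076617) lies at chr12:113418558-113422730 (GRCm38, minus strand). Ighm had 23228 and 3754 counts in knockouts 1 and 2, or 1190 and 210 CPM, against 120370 and 49075 counts, or 8369 and 3123 CPM, in controls 1 and 2. The groups did not overlap, and the lowest control stood 2.62-fold above the highest knockout, a gap smaller than the 5.66-fold distance between the 2 knockouts. The means were 700 ± 693 CPM in the knockouts and 5746 ± 3709 CPM in the controls (SD, n = 2 each), a log2 fold change of -3.04 (SE 0.87). Cd79a (chr7:24897381-24902197, plus strand), a signalling chain of the receptor, had 188 and 37.4 CPM in the knockouts, against 1744 and 362 CPM in the controls (log2 fold change -3.22, SE 0.97). Its partner Cd79b (chr11:106311341-106314762, minus strand) had 375 and 50.9 CPM in the knockouts, against 2014 and 617 CPM in the controls (-2.63, SE 0.96). In both signalling chains control 1 was far above control 2, and for Cd79b the gap between the groups was the narrowest of the 9 members (1.65-fold).

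Of the precursor genes, Igll1 (chr16:16860671-16863985, minus strand), which encodes the lambda5 part of the surrogate light chain, had 15.1 and 2.80 CPM in knockouts 1 and 2, against 77.5 and 61.5 CPM in controls 1 and 2. The controls lay close together here and the lowest stood 4.08-fold above the highest knockout (log2 fold change -2.96, SE 0.76). Vpreb3 (chr10:75943057-75949657, plus strand), which encodes a protein of the same family as the surrogate light chain, had 51.7 and 6.45 CPM in the knockouts, against 311 and 106 CPM in the controls (-2.84, SE 0.97). Rag1 (chr2:101638282-101649501, minus strand) had 314 and 30 counts in the knockouts, or 16.1 and 1.68 CPM, against 904 and 1311 counts, or 62.9 and 83.4 CPM, in the controls (-3.04, SE 0.93). Rag1 was the single member that was higher in control 2 than in control 1, and it had the widest distance between the knockouts (9.57-fold).

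Of the transcription factor genes, Pax5 (chr4:44524757-44710487, minus strand) had 13.8 and 5.04 CPM in knockouts 1 and 2, against 138 and 75.3 CPM in controls 1 and 2. It had the widest gap between the groups (5.46-fold), the shortest distance between the knockouts (2.73-fold) and the largest fold change of the members (log2 fold change -3.50, SE 0.61). Of the 50-base words of Pax5, 7.02% are shared with transcripts on the other strand, and such reads cannot be told apart without strand. Spib (chr7:44525993-44532071, minus strand), an ETS factor gene of B cells and plasmacytoid dendritic cells, had 176 and 25.5 CPM in the knockouts, against 1542 and 339 CPM in the controls (-3.23, SE 1.04). The mature B cell gene Ms4a1 (chr19:11249675-11266241, minus strand) had 57.4 and 13.3 CPM in the knockouts, against 361 and 126 CPM in the controls (-2.78, SE 0.79). For both, each knockout lay below each control, and the 2 libraries of each genotype were 2.86-fold to 6.89-fold apart.

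Per length of exon, the order of the mean levels over the 4 libraries was Ighm (1709 CPM per kb), Cd79b (534), Cd79a (400), Spib (182), Vpreb3 (138), Ms4a1 (22.5), Igll1 (18.1), Pax5 (6.55) and Rag1 (6.21). Every pair of neighbours overlapped in its range over the 4 libraries, but the genes share these libraries. Within single libraries, Ighm, Cd79b, Cd79a and Spib kept their order in all 4, Vpreb3 stood above Ms4a1 in all 4, and Igll1 above Pax5 in all 4. Vpreb3 stood above Spib and Igll1 above Ms4a1 in control 2, and Rag1 above Pax5 in knockout 1 and control 2. Ighm, at the head of the order, ranged from 112 to 4438 CPM per kb over the libraries, whereas Rag1 ranged from 0.25 to 12.6.

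The members did not keep a fixed ratio to each other from library to library. Set against 100 counts of Cd79a in the same library, Spib had 93.3 and 68.2 counts in knockouts 1 and 2, against 88.4 and 93.7 in controls 1 and 2. This was the steadiest ratio of the members. Rag1 had 8.55 and 4.50 counts per 100 of Cd79a in the knockouts, against 3.60 and 23.0 in the controls, and Igll1 had 8.01 and 7.496, against 4.45 and 17.0. Relative to Cd79a, Rag1 and Igll1 were thus highest in control 2 and lowest in control 1, with both knockouts between them. Vpreb3 did not keep this order, with 27.5 and 17.2 counts in the knockouts, against 17.8 and 29.3 in the controls. Cd79a shares 8.31% of its 50-base words with the transcript Gm32220, so a small part of its reads cannot be placed with certainty.

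**Figure D2:**
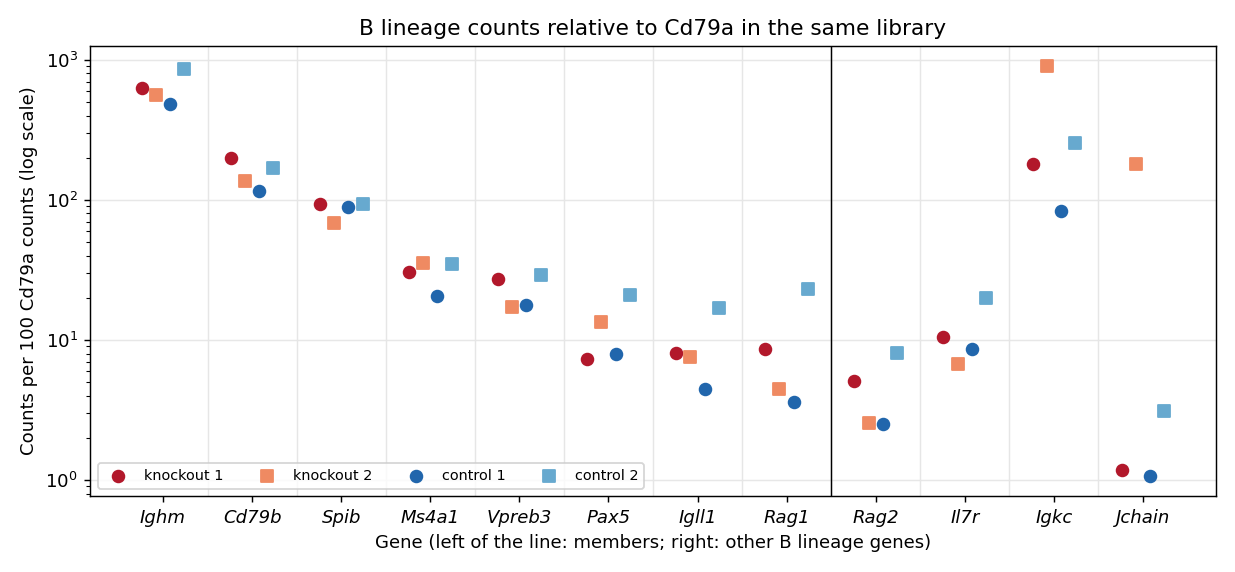
Counts of B lineage genes per 100 counts of Cd79a in the same library (log scale), 1 point a library, with members left of the line. Rag1, Igll1 and Rag2 were highest in control 2, while Igkc and Jchain were highest in knockout 2 (898 and 181 per 100).

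Other genes of the B lineage were examined in 6 lists, from receptor chains to plasma cell genes, that hold 57 genes besides the members. These lists were chosen with earlier results of these data known, and their genes share the same libraries. The counts below therefore describe the lists and are no independent test of the lower B lineage levels. Of the 55 that could be tested, 45 were lower and 3 higher in both knockouts (24.9% and 25.8% of all tested genes), with a median log2 fold change of -2.78. At an adjusted p of 0.05, edgeR's quasi-likelihood test called 0 of the 55 and 0.0% of all tested genes. At an unadjusted p of 0.05 it gave 40 lower and 1 higher, against 9.89% and 7.32% of all tested genes. DESeq2 called 32 lower (5.69% of all genes with an adjusted p) and 0 higher (2.72%). Without knockout 1, edgeR called 35 lower at an adjusted p of 0.05, without control 1 it called 11, and without knockout 2 or control 2 it called 0. Leukocyte markers were lower between the same libraries, with sums of 350 and 91.5 CPM over 5 genes in the knockouts, against 2491 and 810 CPM in the controls, and their part in these counts was not tested.

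Receptor chains were lower throughout, with 7 of 7 tested below both controls and a median of -3.54. Igkc, the constant part of the kappa light chain, had 341 and 336 CPM in knockouts 1 and 2, against 1455 and 929 CPM in controls 1 and 2. Its log2 fold change was -1.82 (SE 0.37, edgeR adjusted p = 0.152, DESeq2 adjusted p = 0.000764). Unlike in the 9 members, the knockouts lay close together in Igkc. Vpreb1, which encodes the other part of the surrogate light chain, had 91 and 15 counts in the knockouts, against 907 and 301 in the controls. Its near copy Vpreb2 had 7 and 0 counts, against 127 and 14. Vpreb1 and Vpreb2 share 23.6% and 32.8% of their 50-base words with other genes, among them each other, and are uncertain apart.

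Of 12 other transcription factor genes of the lineage, 10 were lower in both knockouts (median -2.59). Ikzf1 had 29.6 and 21.1 CPM in the knockouts, against 303 and 153 CPM in the controls. Its log2 fold change was -3.17 (SE 0.46, edgeR adjusted p = 0.145, DESeq2 adjusted p = 4.07e-08). Irf8 had 87.8 and 27.3 CPM, against 693 and 128 CPM. Tcf3, which is broadly expressed, had 116 and 296 CPM in the knockouts, against 327 and 265 CPM in the controls, and so overlapped between the groups. Surface proteins were lower in 11 of 12 (median -3.22). Tnfrsf13c, the receptor for the survival factor BAFF, had 75.9 and 18.7 CPM in the knockouts, against 799 and 97.7 CPM in the controls. Signalling genes were lower in 9 of 9 (median -2.83). Blnk, an adaptor below the receptor, had 148 and 33.0 CPM in the knockouts, against 1003 and 282 CPM in the controls.

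The recombination list was split, with 6 of 10 lower and 1 higher in both knockouts and a median of -0.47. Apart from Rag2 and Dntt its genes act in DNA end joining or in chromatin in most cells. Xrcc6, a subunit of the Ku complex of end joining, had 121 and 67.5 CPM in the knockouts, against 485 and 199 CPM in the controls (log2 fold change -1.86, SE 0.53, edgeR adjusted p = 0.179, DESeq2 adjusted p = 0.00722). Of the exon bases of Xrcc6, 344 of 4476 overlap Desi1 on the other strand. Xrcc5 was the 1 gene of the list higher in both knockouts, with 41.8 and 39.0 CPM, against 17.9 and 33.0 CPM in the controls. Hmgb1 had 286 and 257 CPM in the knockouts, against 452 and 320 CPM in the controls. Rag2, the partner of Rag1 in the recombinase, had 188 and 17 counts in the knockouts, against 630 and 456 in the controls. Dntt, the polymerase that adds bases at the joints, had 77 and 1 counts, against 880 and 656. Knockout 2 was thus nearly without Dntt counts.

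**Figure D3:**
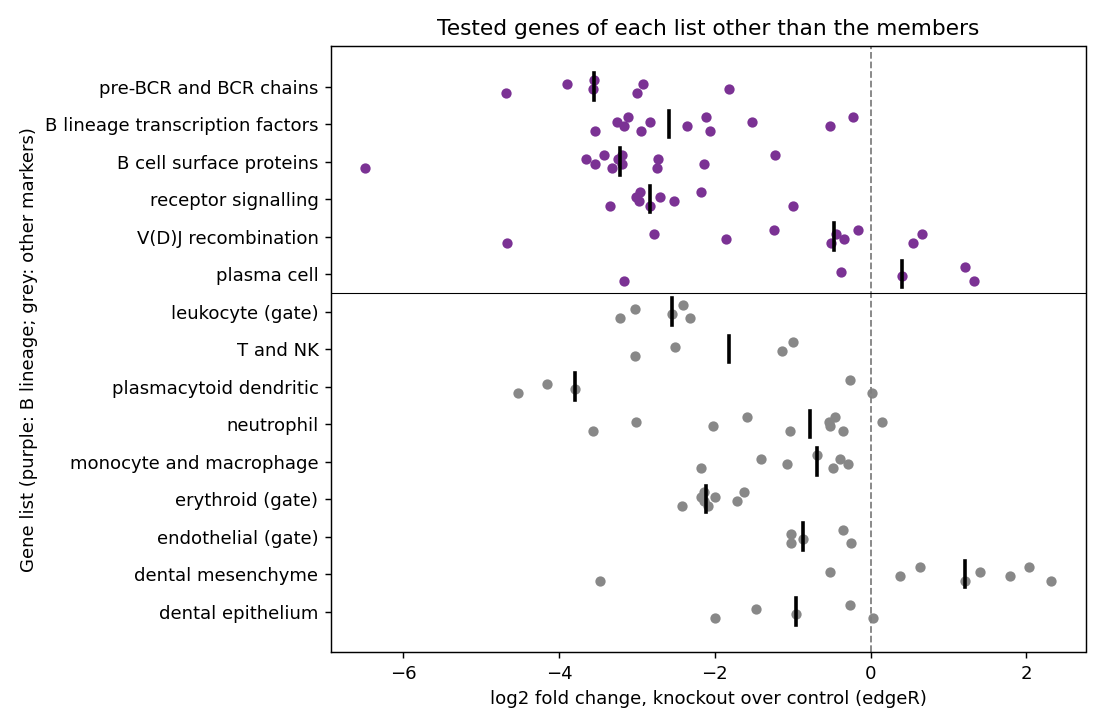
Log2 fold change (knockout over control, edgeR) of each tested gene in the B lineage lists (purple) and in lists of other cell types (grey), without the 9 members, with black bars at list medians. The dashed line is the median of all tested genes, and the list medians run from -3.80 for plasmacytoid dendritic markers to 1.21 for dental mesenchyme genes.

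The plasma cell list was split. Of 5 tested, 2 were lower and 2 higher in both knockouts (median 0.40). That median is the value of Sdc1, which had 622 and 619 CPM in the knockouts, against 564 and 376 CPM in the controls. Jchain, which encodes the chain that joins secreted IgM and IgA, had 43 and 1209 counts in knockouts 1 and 2, or 2.20 and 67.8 CPM, against 269 and 178 counts, or 18.7 and 11.3 CPM, in controls 1 and 2. Knockout 2 was the highest library and knockout 1 the lowest, so the groups overlapped (log2 fold change 1.22, SE 1.22, edgeR adjusted p = 0.676, DESeq2 adjusted p = 0.810). Prdm1, a factor of plasma cells with roles in other tissues, had 42.3 and 59.1 CPM in the knockouts, against 19.4 and 21.0 CPM in the controls. The widely expressed Xbp1 had 386 and 345 CPM in the knockouts, against 565 and 387 CPM in the controls. Mzb1, an endoplasmic reticulum protein gene of antibody-making cells, had 19 and 4 counts, against 124 and 36. Of its 1215 exon bases, 695 overlap SPATA24 on the same strand, so reads may be missing from these counts. Tnfrsf17 had 0 counts in every library, where a count of 3 corresponds to 0.154 to 0.209 CPM.

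The constant genes of the heavy chain, of which Ighm alone is a member and the others were picked after their values were seen, set knockout 2 apart. Ighm took 98.1% of all heavy chain constant counts in knockout 1 (95% exact binomial interval 98.0 to 98.3) and 28.8% in knockout 2 (28.0 to 29.5), against 96.9% in control 1 (96.8 to 97.0) and 94.8% in control 2 (94.6 to 94.99). These intervals cover counting error at most. They treat each read as a separate molecule, but PCR copies are counted as reads, so they are too narrow even for that. In knockout 2, IgG genes took 49.0% (48.1 to 49.8) and Igha 21.8% (21.1 to 22.5). IgG was at 0.16% in knockout 1, against 0.76% and 0.26% in controls 1 and 2. Nearly all IgG counts of knockout 2 came from Ighg2b, with 27 and 6381 counts in the knockouts, against 919 and 48 in the controls. Igha had 125 and 2840 counts in the knockouts, against 1194 and 1118 in the controls. The library with the fewest counts of the 9 members thus had the most of switched heavy chains. It was also the library with the most Ddx3y counts, whose part in this difference was not tested.

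**Figure D4:**
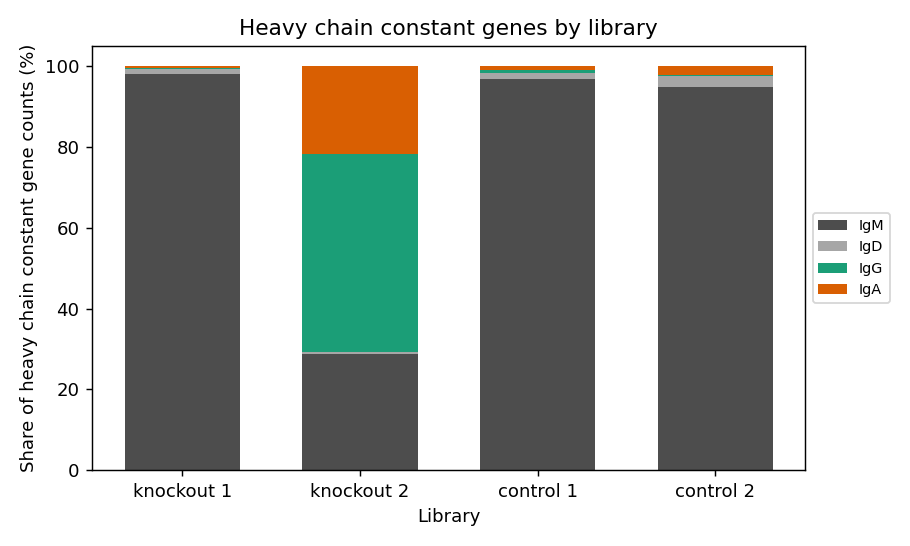
Share of heavy chain constant gene counts taken by IgM (Ighm), IgD (Ighd), IgG (4 genes) and IgA (Igha) in knockouts 1 and 2 and controls 1 and 2. IgM made up 98.1% in knockout 1 and 28.8% in knockout 2, against 96.9% and 94.8% in the controls.

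Variable segments of the immunoglobulin loci, also outside the member list, set knockout 2 apart as well. Summed over 247 V, D and J segments, knockouts 1 and 2 held 6857 and 6940 counts, or 351 and 389 CPM, against 25268 and 14204 counts, or 1757 and 904 CPM, in controls 1 and 2. Of 113 heavy chain V segments, 90 had a count in knockout 1 and 55 in knockout 2, against 100 and 98 in the controls. The most abundant of them took 5.67% (4.81 to 6.63, the same kind of interval) of heavy V counts in knockout 1 and 44.7% (42.9 to 46.6) in knockout 2, against 6.18% (5.74 to 6.64) and 9.76% (8.98 to 10.6) in the controls. In knockout 2 this was Ighv5-4, with 111 and 1278 counts in the knockouts, against 273 and 153 in the controls.

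The kappa chain showed the same contrast between the knockouts. Of 100 segments, 87 and 41 had a count in knockouts 1 and 2, against 96 and 97 in the controls. In knockout 2 the leading 3, Igkv19-93, Igkv15-103 and Igkv12-98, took 30.05%, 26.6% and 20.2% of kappa V counts. Together the leading 3 segments of each library took 30.8% in knockout 1 and 76.9% in knockout 2, against 27.6% in control 1 and 29.4% in control 2. Igkv1-135 led in the other libraries, with 19.2% in knockout 1, against 17.7% and 17.2% in controls 1 and 2, and it took 1.73% in knockout 2. Igkv19-93, Igkv15-103 and Igkv12-98 share none of their 50-base words with other genes, whereas Ighv5-4 shares 19.9% with other segments. How reads from joined segments were aligned is not given in the sources used here. Knockout 1 and the controls spread over many segments, and knockout 2 rested on a few.

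**Figure D5:**
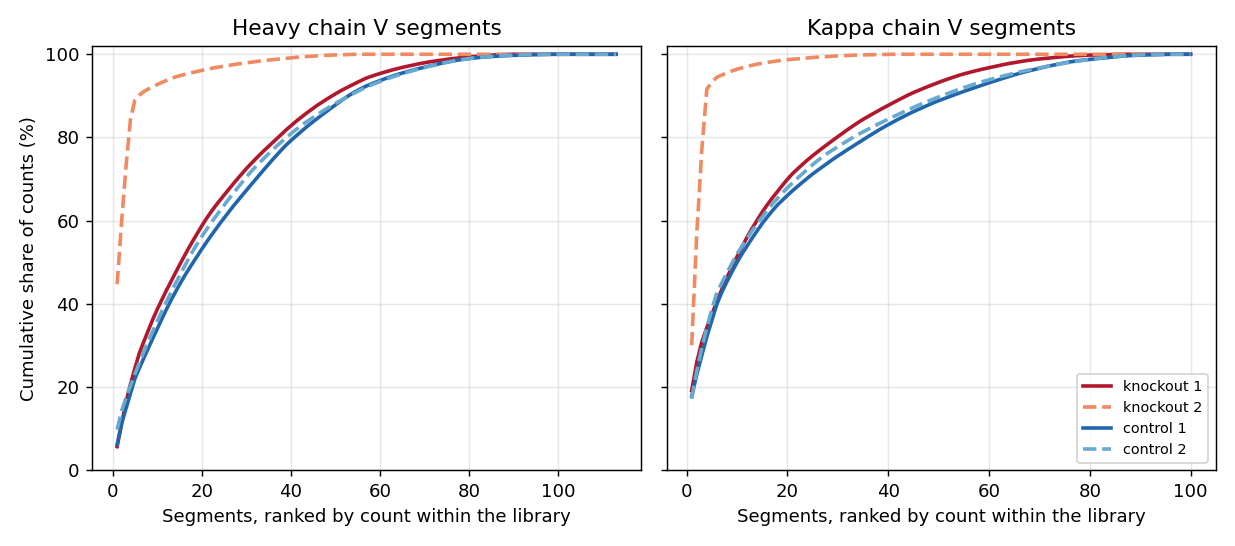
Cumulative share of V segment counts (%) against the rank of the segment within its library, for 113 heavy chain and 100 kappa chain segments in knockouts 1 and 2 and controls 1 and 2. In knockout 2 the 4 leading segments took 84.3% of heavy and 91.6% of kappa V counts, against 20.7% and 34.3% in knockout 1 and at most 20.3% and 34.2% in the controls.

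Markers of the sort and of other blood cells differed in how far they were lower between the same libraries. Ptprc, the gene of CD45, had 39.2 and 9.25 CPM in knockouts 1 and 2, against 140 and 144 CPM in controls 1 and 2, so RNA of CD45 was present in cells sorted as lacking it. Of the 5 leukocyte markers 4 were lower in both knockouts. Over all tested genes 24.9% were, the share to set beside each list count here and below. Tek, the gene of Tie2, had 44.8 and 41.8 CPM in the knockouts, against 21.7 and 81.2 CPM in the controls, and so overlapped. Of 5 endothelial markers, Tek included, 3 were lower in both knockouts, with sums of 387 and 336 CPM, against 485 and 781 CPM. Of 7 monocyte and macrophage markers 4 were lower, with sums of 122 and 85.0 CPM, against 210 and 142 CPM. Of 10 neutrophil markers 5 were lower and 5 overlapped, with sums of 202 and 75.1 CPM, against 527 and 329 CPM. Erythroid markers were lower in 8 of 8, with sums of 86.7 and 105 CPM, against 427 and 407 CPM. Between the libraries of a genotype, erythroid sums were close, whereas the 9 members were 2.73-fold to 9.57-fold apart between the knockouts. The part of these blood cell markers in the levels of the 9 members was not tested.

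The T cell receptor complex was near 0, with Cd3e at 0 counts in every library and Cd3d at 14 and 0 counts in the knockouts, against 21 and 0 in the controls. Cd2 of the same list had 383 and 47 counts in the knockouts, against 2327 and 298 in the controls, and 1 of 4 tested T and NK cell markers was lower in both knockouts. Spib is also a gene of plasmacytoid dendritic cells, whose defining marker Siglech had 8 and 0 counts in the knockouts, against 98 and 48 in the controls. Klk1 of the same list was at 0 in all 4 libraries. The summed level of that list was 188 and 215 CPM in the knockouts, against 181 and 252 CPM in the controls, most of it from the broadly expressed Tcf4, and 3 of its 5 tested genes were lower in both knockouts. The median log2 fold change of those tested genes was -3.80. Spib itself was at 25.5 CPM or more in every library. The part of plasmacytoid dendritic cells in the level of Spib was not tested.

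Among 15437 tested genes with a mean of at least 1 CPM, the 6 with the profile over the 4 libraries nearest to the mean profile of the members were Slc12a3, Cd72, Arl5c, Smtnl2, Klhl6 and Rhoh. Likeness was the root mean square difference of centred log2(CPM + 1) over 4 libraries, which ran from 0.078 for Slc12a3 to 0.148 for Rhoh, while the members themselves lay 0.091 (Ighm) to 0.61 (Rag1) from their mean. Cd72, a B cell inhibitory receptor, was the single gene of the 6 on the B lineage lists and had 111 and 19.3 CPM in the knockouts, against 603 and 258 CPM in the controls. Slc12a3, best known as the thiazide-sensitive salt transporter of the kidney, had 307 and 35 counts in the knockouts, against 1341 and 672 in the controls. Of the exon bases of Cd72, 1423 of 3422 overlap Tesk1 on the other strand, which had 39 to 74 counts a library.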

How the data were processed

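The authors deposited raw counts per Ensembl gene ID for 4 libraries in 1 table, which were used as deposited. Per the labels' protocols, oligo-dT primed cDNA with template switching was amplified in 14 PCR cycles and fragmented with a transposase kit, which marks neither strand nor molecules. Bowtie2 2.3.5.1, Trim Galore 0.6.6 and featureCounts 2.0.1 are named, with GRCm38, per the submitters' processing notes. Not given in the sources used here are the annotation release, the strand setting and the handling of reads with several matches.

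Symbols, coordinates and exon lengths came from GENCODE M21 (GRCm38), which held 55227 of 55487 IDs. The fit was edgeR 4.0.16 (R 4.3.3), quasi-likelihood F-test, TMM scaling, filterByExpr, genotype as the only term, two-sided, Benjamini-Hochberg adjustment over 17128 genes, threshold 0.05. An SE is the absolute log2 fold change divided by the square root of F. DESeq2 1.42.0 was an alternative. Shared 50-base words were counted over GENCODE transcripts on both strands.

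The members, lists and tests were chosen with earlier results of these data known. All members were to be named, with up to 4 most abundant genes of each list (not all are printed) and the 6 nearest in profile. Other genes were picked after their values were seen.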

Additional observations from a re-analysis of the deposited data

How the results depend on the processing

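All 9 members kept a negative log2 fold change in each of 10 refits (90 values). Without 1 library the median over the members ranged from -4.76 (without knockout 1) to -1.83 (without control 1), and single members from -5.43 to -1.5001. Other settings gave -3.67 to -2.55. Against 0 genes higher and 0 lower in the main edgeR fit, edgeR without the low-count filter called 449 higher and 1005 lower, and DESeq2 472 and 989. Of the B lineage genes besides the members, these called 37 and 32 lower and 0 higher. The fit without the filter gave an infinite prior, so that a gene's own spread does not enter its p. Leaving out 1 library gave 0 to 215 higher and 0 to 703 lower genes, and 0 to 1 higher (Jchain, without knockout 1) and 0 to 35 lower B lineage genes. The median of all tested genes was -0.21 without the filter and -0.11 without knockout 1. A lone library is assumed there to vary like the other group. With the replicate block edgeR called 59 higher and 185 lower genes, and 21 lower B lineage genes. The labels name no pairing, and deviations of same-numbered libraries correlated at r = 0.15 across 17128 genes. The log2 ratio of mean CPM of V, D and J segments, knockout over control, was -1.85, and -2.36 with constant genes added, which brings in Ighm. Motif counts were the same in the 250 bases before the start. Except where stated, the cause of these changes was not tested.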

Other observations

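Light chain use also differed between libraries of a genotype. The lambda constant genes Iglc1, Iglc2 and Iglc3 took 12.3% of light chain constant counts in knockout 1 and 1.96% in knockout 2 (95% exact binomial intervals 11.6 to 13.1 and 1.63 to 2.35), against 22.6% in control 1 and 8.26% in control 2 (22.1 to 23.1 and 7.84 to 8.70). Control 1, the library with the most counts of the members, thus had the highest lambda share, and knockout 2 the lowest. The other libraries did not keep this order. Knockout 1 had a higher lambda share than control 2, with the members at 2083 CPM, against 4895 CPM in control 2. Iglc2 and Iglc3 share sequence with each other, and Iglc3 also with a gene outside the sum. Reads that match several genes may be missing or misplaced in these shares.

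A pair of transcripts that share sequence with members were also lower in both knockouts. 5730488B01Rik, antisense to Pax5, had 12 and 5 counts in knockouts 1 and 2, against 101 and 93 in controls 1 and 2. Gm32220, which shares words with Cd79a, had 64 and 25 counts in the knockouts, against 497 and 118 in the controls. Without strand, reads from the overlap of Pax5 and its antisense transcript cannot be told apart, and Gm32220 has no exon overlap with Cd79a. B230118H07Rik, which shares 80 exon bases with Rag1, had 654 and 405 counts in the knockouts, against 288 and 322 in the controls, and so did not follow Rag1.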
